A study of Mus musculus with 9 samples.

Results

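NB9464 tumors from mice given R788 + anti-PDL1 were compared with tumors from vehicle-treated mice. NB9464 is a mouse neuroblastoma line in which MYCN is amplified. The samples were chosen by their treatment labels and are 3 R788 + anti-PDL1 tumors and 3 vehicle tumors, 6 of the 9 RNA-seq libraries of the series. The other 3 tumors had been irradiated as well (Rad + R788 + anti-PDL1) and enter below only where they are named. All mice were wild-type C57BL/6 animals carrying NB9464 cells injected under the skin, and they were assigned to a group once the tumor had reached 250 mm3. R788 was dosed at 50 mg/kg, 5 times a week. The anti-PDL1 antibody was clone 10F.9G2, listed as 4 times a week in the labels and on days 28, 31, 34 and 37 in the series text. The irradiated tumors received 10 Gy. Neither drug was given alone in the tumors analysed here, so the effects of R788 and of the antibody cannot be told apart. Nothing in the labels says more of the 3 tumors of a group than that they are separate tumors, and p-values measure the spread between them.

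R788 (fostamatinib) is an oral prodrug of an inhibitor of Syk, a tyrosine kinase that carries signals from Fc receptors, C-type lectins and other receptors bearing or pairing with an ITAM motif. Macrophages, mast cells, neutrophils and B cells depend on it. PD-L1, encoded by Cd274, is a surface ligand that restrains T cells through PD-1, and the antibody blocks that contact. Neuroblastoma arises from the sympathetic nervous system, and its cells usually carry transcription factors such as PHOX2A, HAND2 and GATA3 and the enzymes of catecholamine synthesis.

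The labelled identity was checked against those markers. Mycn was present at 93.3 to 250.3 CPM (read counts scaled to a common, TMM-normalized library size) over the 9 libraries, and Hand2 at 325 to 867 CPM. Th, tyrosine hydroxylase, had no count in any of the 9 libraries. Phox2a, Dbh and Chga, the last 2 being dopamine beta-hydroxylase and chromogranin A, summed to 6, 1 and 9 counts over all libraries. Gata3 reached 11.4 CPM at most. The tumors therefore showed Mycn and Hand2 but were at or near 0 for Th, Phox2a, Dbh and Chga, in treated and untreated mice alike. A further conflict in the labels is that bone marrow-derived macrophages are named in the extraction text, whereas the tissue is given as whole tumor.

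Library totals ran from 18594125 to 23397886 counts in the 6 tumors compared. Of 54429 gene symbols, 15931 had enough counts to be tested. The treated tumors 1 and 3 resembled each other more (Pearson r = 0.980 across genes, on log2 CPM) than either resembled treated tumor 2, the lowest r within that group being 0.944. A list median printed below that moved by over 1.5 times when 1 tumor was left out is also given without that tumor. All 6 libraries differed pairwise by more than counting noise, so none was counted as a duplicate. The first irradiated library stood apart from the rest, and the common dispersion of the fit, its estimate of the spread between replicates, was 0.146 with it and 0.087 without it.

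In the fit of all 9 libraries, 108 genes passed an adjusted p of 0.05 (edgeR quasi-likelihood test, Benjamini-Hochberg), which is 0.678% of the genes tested. Of these, 62 rose (0.389%) and 46 fell (0.289%) with R788 + anti-PDL1. At an unadjusted p under 0.05 there were 950 higher genes (5.96%) and 907 lower genes (5.69%). Counts of list members at this threshold, given below, stand against these shares. The 3 treated values lay entirely above the 3 vehicle values for 13.6% of genes and entirely below for 16.5%, together 30.1%. When the 6 tumors compared were fitted without the irradiated ones, 327 genes were called higher (2.11%) and 267 lower (1.73%), and all 108 genes were among these 594 (3.84%). DESeq2 called 770 genes (4.83%), of which 443 were higher (2.78%) and 327 lower (2.05%). Leaving out 1 tumor reduced the calls to 34 without treated tumor 2, 75 without vehicle tumor 1 and 0 without any of the other 4 tumors (edgeR, with 1171 to 1816 genes at an unadjusted p under 0.05 over these 6 fits). All 108 genes kept their direction in every such fit, but they had been chosen from these same tumors, so this is not independent support.

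The largest rises were of genes that vehicle tumors barely expressed. Isl1, a LIM homeobox factor of sympathetic and motor neurons, had no count in any vehicle tumor and 80, 48 and 63 counts in the treated ones. Pappa, a protease that frees IGFs from their binding proteins, and Tmeff2 were also without a count in vehicle. Set against a floor of 3 counts over the vehicle group, these genes were at least 51.0-fold, 32.6-fold and 27.5-fold higher. Lrp2, the endocytic receptor megalin, had 1.33, 0.404 and 0.712 CPM in the vehicle tumors and 29.2, 9.90 and 24.1 CPM in the R788 + anti-PDL1 tumors (log2 fold change 4.70 ± 0.65 (SE), edgeR adjusted p = 0.038). Gprin3, which binds activated G proteins in neurons, had 0.221, 0.18 and 0.493 CPM in vehicle and 9.83, 10.7 and 7.83 CPM with treatment (log2 fold change 4.97 ± 0.81 (SE), edgeR adjusted p = 0.038). Neither gene overlapped between the groups, and the rise of Lrp2 was smallest in treated tumor 2.

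Some of the genes that rose encode receptors, ligands or regulators of growth factor signalling. Nrg1, a ligand of ERBB receptors, had 0.442, 0.404 and 0.658 CPM in vehicle and 5.86, 10.7 and 9.39 CPM with treatment (log2 fold change 4.10 ± 0.52 (SE), edgeR adjusted p = 0.034). Mst1r, the receptor of macrophage-stimulating protein, had 5.69, 5.43 and 4.99 CPM in vehicle and 19.6, 32.4 and 28.2 CPM with treatment, a 4.97-fold rise (edgeR adjusted p = 0.034). The values of both genes were tightly grouped in vehicle and did not overlap. Met, the HGF receptor, had 0.11, 0.359 and 0.822 CPM in vehicle and 7.67, 2.18 and 6.31 CPM with treatment and rose by 3.63 on the log2 scale (edgeR adjusted p = 0.045). Of the 40 receptor tyrosine kinases listed, 32 were tested, and these 2 were the called ones, against 0.678% of all genes tested. Another 7 were higher and 3 lower at an unadjusted p under 0.05, against 5.96% and 5.69% of all genes tested. The list median was 0.58 against -0.02 for all genes. Insrr and Ror1 were the next by p, at 0.617, 3.48 and 1.68 CPM for Insrr with treatment and no count in vehicle, and 6.35, 6.42 and 5.65 CPM in vehicle and 19.3, 24.5 and 20 CPM with treatment for Ror1. Spry1 and Egr3, both induced by ERK, rose 8.26-fold and 5.12-fold (edgeR adjusted p = 0.038 and 0.048), with Spry1 at 4.42, 2.51 and 3.45 CPM in vehicle and 16.5, 45.7 and 23.5 CPM with treatment. Kitl, the ligand of KIT, had 7.34, 4.58 and 4.60 CPM in vehicle and 15.9, 23.7 and 24.7 CPM with treatment (log2 fold change 1.96 ± 0.32 (SE), edgeR adjusted p = 0.038). Every treated tumor was above every vehicle tumor for these genes.

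Among nuclear factors, Nr2f2 (COUP-TFII), an orphan nuclear receptor of mesenchyme and veins, gave the smallest p of all genes. It had 42.7, 41.2 and 34.6 CPM in the vehicle tumors and 168, 162 and 161 CPM in the R788 + anti-PDL1 tumors (log2 fold change 2.05 ± 0.19 (SE), edgeR adjusted p = 0.015). Zeb2, a zinc finger repressor of epithelial genes, had 9.39, 8.94 and 8.77 CPM in vehicle and 45.1, 44.4 and 45.0 CPM with treatment (log2 fold change 2.31 ± 0.32 (SE), edgeR adjusted p = 0.038). The treated values of both genes differed among themselves by only a few percent. Ahr, Hdac9 and Tfcp2l1 rose 4.80-fold, 10.3-fold and 8.39-fold. The antisense neighbour of Nr2f2, B130024G19Rik, was called too, but strandedness was not stated in the sources used here and reads of such a pair may be shared. Other risers act at the cell surface and in the matrix. Itgb4, the laminin-binding integrin beta 4, had 15.2, 14.8 and 8.77 CPM in vehicle and 80.2, 63.6 and 80.3 CPM with treatment (log2 fold change 2.53 ± 0.46 (SE), edgeR adjusted p = 0.047). Has2, a hyaluronan synthase, had 1.55, 0.629 and 0.822 CPM in vehicle and 6.75, 10.8 and 7.21 CPM with treatment (log2 fold change 3.04 ± 0.50 (SE), edgeR adjusted p = 0.038). Nt5e (CD73), which makes adenosine from AMP, rose 5.33-fold, and Npnt, Adam12, Podxl and Alpl rose 6.67-fold, 3.79-fold, 2.51-fold and 4.93-fold (edgeR adjusted p = 0.038, 0.041, 0.038, 0.038 and 0.038).

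The largest falls were of receptors. Gpr50, an orphan relative of the melatonin receptors, had 12.3, 118 and 92.3 CPM in the vehicle tumors and 2.03, 1.34 and 1.56 CPM in the R788 + anti-PDL1 tumors (log2 fold change -5.50 ± 0.75 (SE), edgeR adjusted p = 0.038). Ptgfr, the receptor of prostaglandin F2-alpha, had 22.4, 43.2 and 31.7 CPM in vehicle and 0.794, 4.05 and 1.84 CPM with treatment (log2 fold change -3.85 ± 0.56 (SE), edgeR adjusted p = 0.038), and Gpr55 had 16.5, 27.7 and 28.0 CPM in vehicle and 3.66, 1.26 and 1.97 CPM with treatment (log2 fold change -3.39 ± 0.42 (SE), edgeR adjusted p = 0.034). The groups were far apart for all 3, although vehicle tumor 1 had much less Gpr50 than the other vehicle tumors. The irradiated tumors lay between the groups for Gpr50 and Ptgfr, at 5.38, 6.19 and 6.94 CPM and 7.67, 10.6 and 14.0 CPM. Ksr1, a scaffold of the RAF-MEK-ERK cascade, had 62.7, 129.6 and 117 CPM in vehicle and 27.9, 26.7 and 31.7 CPM with treatment (log2 fold change -1.84 ± 0.30 (SE), edgeR adjusted p = 0.038). Pkdcc, a secreted tyrosine kinase, had 316, 301 and 313 CPM in vehicle and 66.0, 115 and 84.0 CPM with treatment (log2 fold change -1.81 ± 0.27 (SE), edgeR adjusted p = 0.038). Gnas, which encodes the stimulatory G protein subunit and is imprinted, was the most abundant called gene outside chromosome 8. It had 2014, 2039.8 and 2038 CPM in vehicle and 717, 1022 and 748 CPM with treatment (log2 fold change -1.29 ± 0.22 (SE), edgeR adjusted p = 0.041), with overlapping antisense transcripts at the same locus. Lef1, a Wnt-responsive factor, fell 1.995-fold, Nfil3 2.61-fold, Srxn1 2.42-fold and Vegfd 2.94-fold (edgeR adjusted p = 0.039, 0.038, 0.038 and 0.041).

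**Figure D1:**
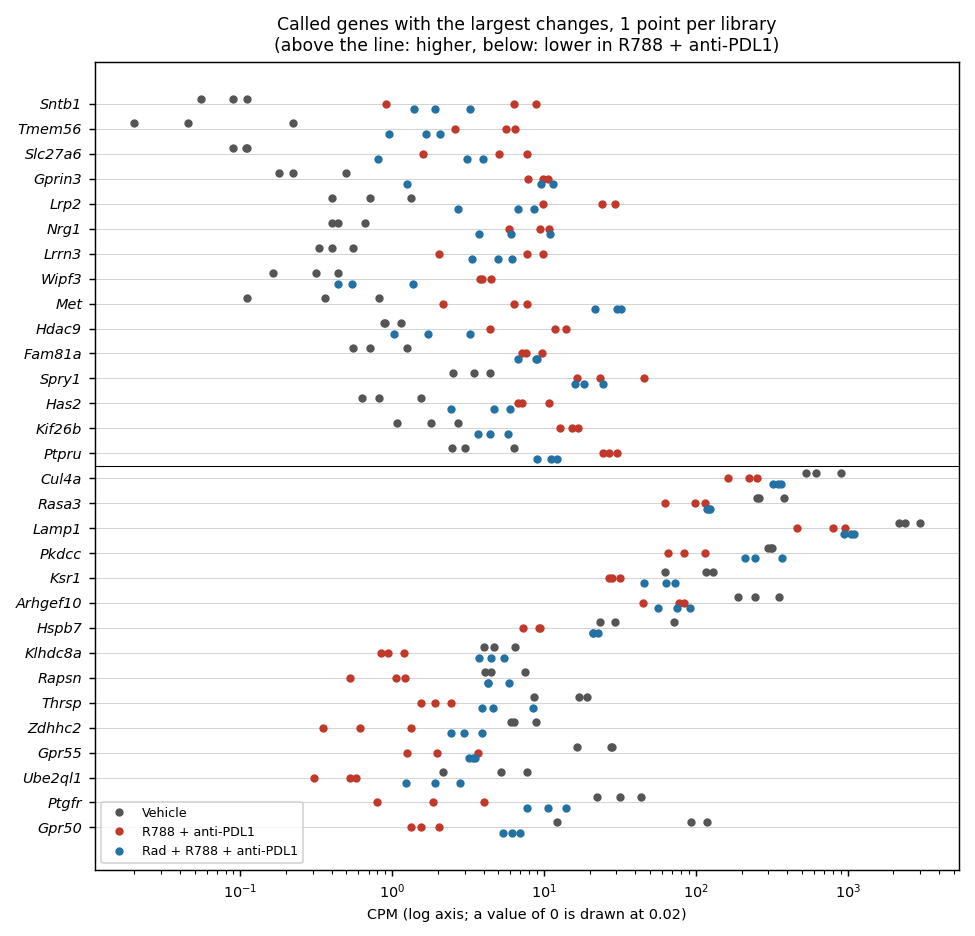
CPM (log axis) of the 15 called genes with the highest and the 15 with the lowest log2 fold change among those with a mean count of at least 50 and no overlap between groups. Each point is 1 library, grey for vehicle, red for R788 + anti-PDL1 and blue for Rad + R788 + anti-PDL1. Red and grey points do not overlap, by the rule that chose these genes, and 4 of the 15 lower genes (Arhgef10, Lamp1, Rasa3 and Cul4a) lie in a single segment of chromosome 8.

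The promoters of the 2 highest and the 2 lowest of these genes with an entry in the reference table, Slc27a6 left out, are printed to show the sequence beside the change. They run from 250 bases before to 50 bases after the RefSeq start (GRCm38.p6), 5′ to 3′ on the strand of the gene, and capitals mark motifs found on either strand. The motifs searched were the E-box CACGTG of MYC proteins, the cAMP response element TGACGTCA, the AP-1 element TGANTCA, the hypoxia response element core ACGTG, which every E-box contains, the interferon-stimulated response element, the GAS element TTCNNNGAA and the TEAD element CATTCC. A sterol regulatory element, TCACNCCAC, was added after the values were seen.
Gprin3 (chr6:59426257-59426556, reverse strand): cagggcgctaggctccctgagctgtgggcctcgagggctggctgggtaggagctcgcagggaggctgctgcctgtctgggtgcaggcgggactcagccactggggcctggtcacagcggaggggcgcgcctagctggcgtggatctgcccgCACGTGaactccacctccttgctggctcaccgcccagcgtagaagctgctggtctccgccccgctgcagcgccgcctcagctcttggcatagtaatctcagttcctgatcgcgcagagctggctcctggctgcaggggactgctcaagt
Lrp2 (chr2:69585980-69586279, reverse strand): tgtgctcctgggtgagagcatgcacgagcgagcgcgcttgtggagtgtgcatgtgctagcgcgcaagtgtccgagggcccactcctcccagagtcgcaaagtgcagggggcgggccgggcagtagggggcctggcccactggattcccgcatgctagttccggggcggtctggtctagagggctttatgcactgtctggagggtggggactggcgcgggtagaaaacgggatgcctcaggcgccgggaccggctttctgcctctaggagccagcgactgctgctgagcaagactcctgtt
Gpr50 (chrX:71663417-71663716, forward strand): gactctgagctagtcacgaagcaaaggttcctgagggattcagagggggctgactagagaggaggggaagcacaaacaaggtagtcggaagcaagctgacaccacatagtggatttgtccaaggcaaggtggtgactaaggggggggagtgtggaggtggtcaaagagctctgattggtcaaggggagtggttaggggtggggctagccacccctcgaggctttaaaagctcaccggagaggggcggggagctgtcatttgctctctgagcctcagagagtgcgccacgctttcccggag
Ptgfr (chr3:151837479-151837778, reverse strand): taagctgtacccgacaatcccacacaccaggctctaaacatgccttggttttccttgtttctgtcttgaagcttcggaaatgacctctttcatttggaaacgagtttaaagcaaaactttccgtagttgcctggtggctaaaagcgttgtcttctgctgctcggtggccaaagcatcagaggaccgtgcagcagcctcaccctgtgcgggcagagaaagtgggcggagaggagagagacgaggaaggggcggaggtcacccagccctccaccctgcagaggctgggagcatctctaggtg
Gprin3 held 1 E-box, and the other 3 windows held none of these letters. Promoters were found for 11333 of the 15931 genes tested, and 9.94% of them held an E-box. The shares in called genes were close to this, with 4 of 42 promoters of higher genes and 4 of 37 of lower genes. The AP-1 element was held by 3 and 1 of them and by 5.15% of all promoters.

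A stretch of chromosome 8 accounted for 12 of the 46 falls. From the first expressed gene, Insr, to Arhgef10 (GENCODE M21, GRCm38, chr8:3122061-15001085), 69 of 78 genes with at least 1 CPM had a negative log2 fold change, and the median was -1.34, a 2.53-fold difference. This segment was noticed after the values were seen, and its end was set from them. In 59 of the 78 genes every treated value lay below every vehicle value (75.6%, against 18.3% of all genes at that level). Over the next 78 genes, from Kbtbd11 to Ppp2cb, the median was -0.17 and 4 genes were separated downwards.

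The called genes of the segment have diverse known functions. Lamp1, a major glycoprotein of the lysosomal membrane and the most abundant called gene, had 2999, 2171 and 2390.4 CPM in the vehicle tumors and 963, 464 and 801 CPM in the R788 + anti-PDL1 tumors (log2 fold change -1.76 ± 0.30 (SE), edgeR adjusted p = 0.04). Cul4a, the scaffold of a ubiquitin ligase, had 899.7, 532 and 619 CPM in vehicle and 254, 163 and 226 CPM with treatment (log2 fold change -1.67 ± 0.26 (SE), edgeR adjusted p = 0.038). Irs2, an adaptor of the insulin receptor, had 168, 94.0 and 118 CPM in vehicle and 49.8, 28.7 and 45.6 CPM with treatment (log2 fold change -1.61 ± 0.28 (SE), edgeR adjusted p = 0.041). Treated tumor 2 was lowest and vehicle tumor 1 highest for each of these genes. Rasa3 (a GTPase-activating protein for RAS), Arhgef10 (a guanine nucleotide exchange factor), Tubgcp3 (a subunit of the gamma-tubulin complex), Ing1, Pcid2, Champ1, Evi5l, Timm44 (mitochondrial protein import) and Mcoln1 (a lysosomal cation channel) fell as well, by 2.33-fold to 3.83-fold. In the fit of the 6 tumors alone, 36 genes of the segment were called lower and 0 higher. Of the 78 genes, 9 had a positive log2 fold change, namely Cd209c, Cd209f, Prr36, Gm6410, 2900027M19Rik, Myo16, Col4a1, Gm45410 and Gas6. Cd209f, a C-type lectin gene, was wholly above vehicle, at 0.221, 0.359 and 0.219 CPM in vehicle and 0.397, 7.49 and 2.46 CPM with treatment. The groups overlapped for Col4a1, at 66.5, 101 and 111 CPM in vehicle and 94.5, 219.8 and 118 CPM with treatment, Gas6, at 20.2, 8.31 and 9.92 CPM in vehicle and 11.4, 28.7 and 15.9 CPM with treatment, and Myo16, at 4.80, 1.35 and 0.877 CPM in vehicle and 32.3, 0.0382 and 21.7 CPM with treatment. Per-library medians of the segment, as log2 difference from the vehicle mean, were -0.97, -1.58 and -1.12 in the treated tumors and 0.38, -0.27 and -0.09 in the vehicle tumors. The irradiated tumors, which share no library with the treated group, stood at -0.54, -0.81 and -0.85 against the same vehicle mean. The median over the segment stayed between -1.50 and -1.10 when 1 tumor at a time was left out. DNA copy number was not measured, and its part in this result was not tested.

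**Figure D2:**
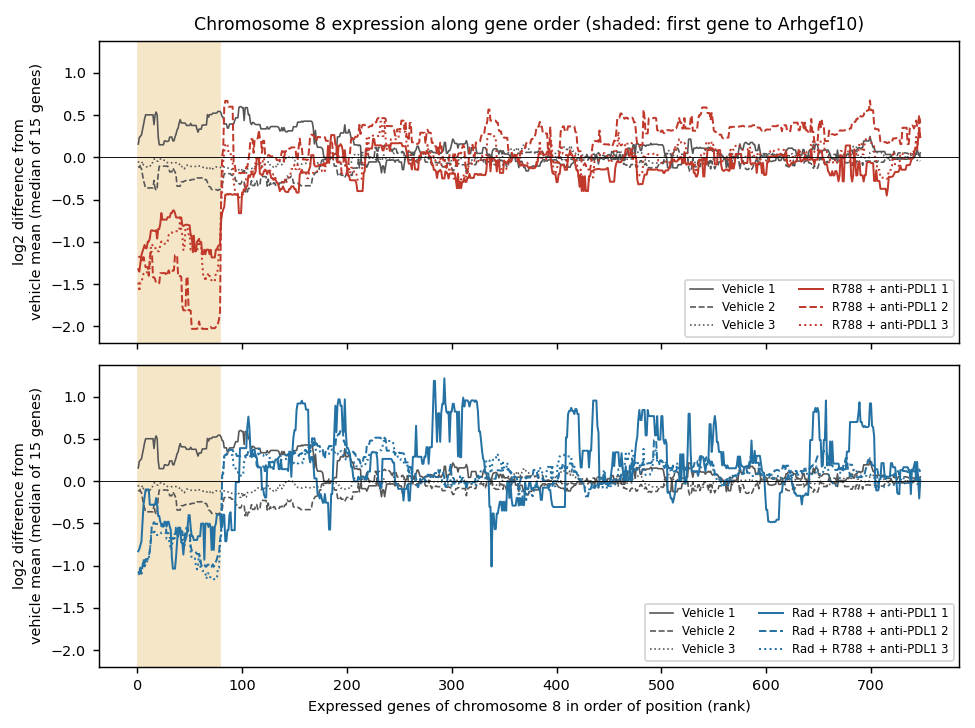
Expressed genes of chromosome 8 in order of position (x axis, rank) against the running median over 15 genes of the log2 difference from the vehicle mean (y axis), with a line for each library. The upper panel shows R788 + anti-PDL1 (red) and the lower panel Rad + R788 + anti-PDL1 (blue), each with the vehicle tumors (grey). Over the shaded segment the medians of the 3 red lines are -0.97, -1.58 and -1.12, and over the same number of genes beyond it they are -0.32, 0.04 and -0.21.

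Smaller differences were shared by all 3 treated tumors on chromosome 1, with medians of -0.20, -0.18 and -0.20, and on chromosome 13, with medians of 0.27, 0.14 and 0.23. The vehicle tumors had -0.12, 0.09 and 0.04 on chromosome 1 and 0.12, -0.09 and -0.04 on chromosome 13. Vehicle tumor 1 thus came close to treated tumor 2 on both. On chromosome 1, 257 of 943 tested genes lay wholly below vehicle and 91 above, and on chromosome 13, 160 of 602 lay wholly above and 32 below. Over all genes tested, 16.5% lay wholly below and 13.6% wholly above. Chromosomes 18 and X differed more, but not in every treated tumor. On chromosome 18, the median over 350 genes was -0.99978 in treated tumor 1 and -0.70 in treated tumor 3, but -0.01 in treated tumor 2. In the order of the 3 treated tumors, 80.3%, 28.6% and 73.1% of its genes lay below all vehicle tumors, against 34.2%, 37.8% and 34.5% over all chromosomes. On the X chromosome the tumor that differed was treated tumor 2, at -0.58, against 0.02 and -0.10. Of the 4 called genes on chromosome 18, Cbln2, Dpysl3 and Slc27a6 rose, and Tubb6 fell. Tubb6, a beta-tubulin, had 287, 268 and 281 CPM in vehicle and 85.2, 119 and 97.9 CPM with treatment (log2 fold change -1.47 ± 0.18 (SE), edgeR adjusted p = 0.034), so its fall held in treated tumor 2 as well.

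**Figure D3:**
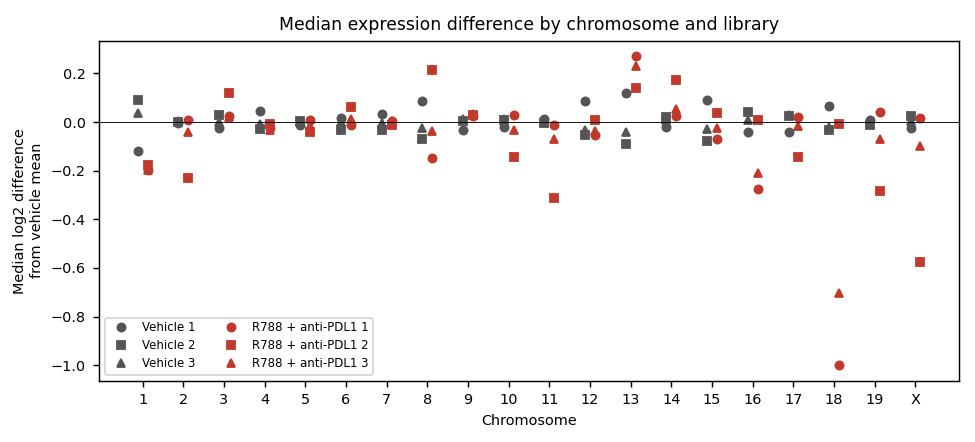
Median over expressed genes of the log2 difference from the vehicle mean (y axis) for each chromosome (x axis), with 1 point per library, grey for vehicle and red for R788 + anti-PDL1. Treated tumors 1 and 3 stand apart on chromosome 18 and treated tumor 2 on the X chromosome.

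The genes of cholesterol synthesis were lower as a group. Cells make cholesterol from acetyl-CoA through mevalonate, and most enzymes of the path, with the LDL receptor, are switched on together by SREBP2 when sterols run low. Of 25 listed genes, all of which were tested, 24 had a negative log2 fold change, with a median of -0.65 against -0.02 for all genes. Only Idi1, isopentenyl-diphosphate isomerase, was called. It had 109, 131 and 111 CPM in the vehicle tumors and 50.0, 63.9 and 55.4 CPM in the R788 + anti-PDL1 tumors (log2 fold change -1.06 ± 0.19 (SE), edgeR adjusted p = 0.043). At an unadjusted p under 0.05, 14 were lower and 1 was higher. Of the 25, 16 lay wholly below vehicle, against 16.5% of all genes tested, and the fit of the 6 tumors called 9 lower. Cyp51, lanosterol demethylase, had 94.1, 156 and 126 CPM in vehicle and 63.1, 52.5 and 59.1 CPM with treatment (edgeR adjusted p = 0.068, and 0.03 with the 6 tumors alone). Insig1, which retains the SREBP complex in the ER, had 60.0, 79.8 and 77.6 CPM in vehicle and 39.99, 40.4 and 38.0 CPM with treatment, and Sqle, squalene epoxidase, had 159, 204 and 195 CPM in vehicle and 102, 98.9 and 98.1 CPM with treatment. The 3 treated tumors were almost level for these genes. Hmgcs1, the synthase at the start of the path, had 91.9, 122.7 and 109.7 CPM in vehicle and 61.6, 62.7 and 58.8 CPM with treatment (edgeR adjusted p = 0.094). The summed level of the list was 2009, 2447 and 2379.6 CPM in vehicle, 1524, 1518 and 1494 CPM in R788 + anti-PDL1, and 2589, 2340.1 and 2049 CPM in the irradiated tumors. The list median stayed between -0.72 and -0.59 with 1 tumor left out.

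The promoter of Hmgcs1 is shown because it held the sterol regulatory element, in capitals.
Hmgcs1 (chr13:119690101-119690400, forward strand): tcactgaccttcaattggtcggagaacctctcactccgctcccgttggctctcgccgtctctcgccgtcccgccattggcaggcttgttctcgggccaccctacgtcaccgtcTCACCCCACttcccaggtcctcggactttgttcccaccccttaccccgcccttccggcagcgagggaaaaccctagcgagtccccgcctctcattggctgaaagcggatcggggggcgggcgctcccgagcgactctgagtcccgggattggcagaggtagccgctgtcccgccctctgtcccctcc
It was the only 1 of 17 promoters of the list to hold these letters in this window, and 1.05% of all promoters did.

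**Figure D4:**
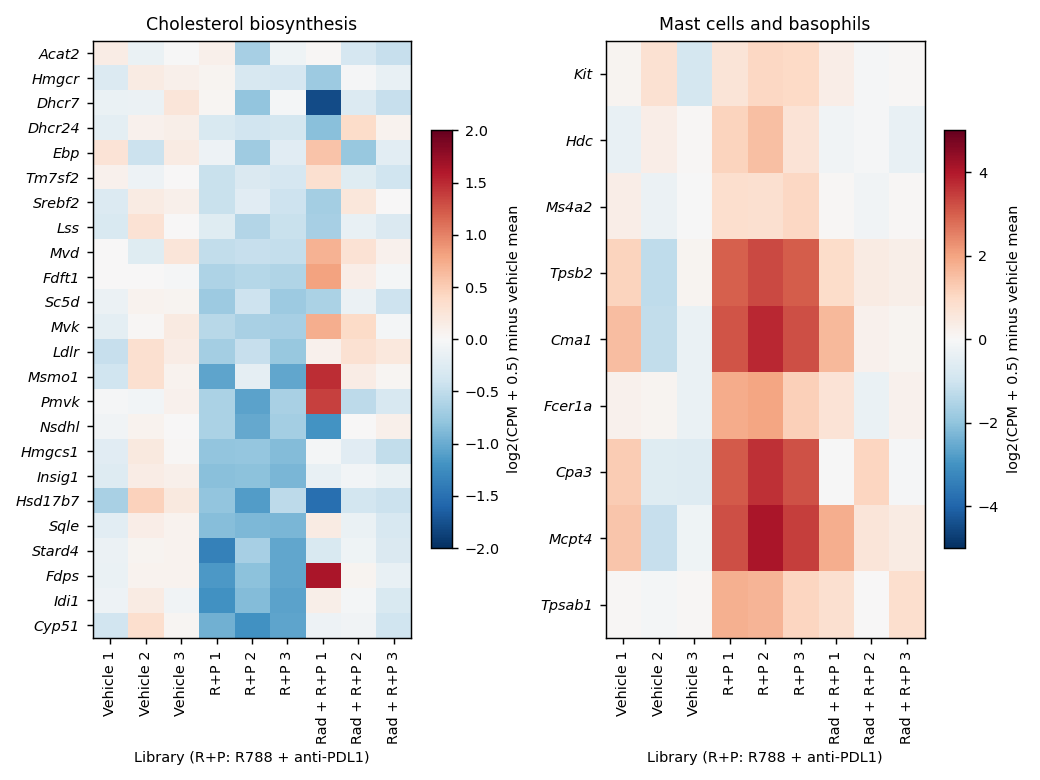
Log2(CPM + 0.5) minus the vehicle mean for genes (rows) of the cholesterol biosynthesis list, 24 of the 25 being drawn, and for the tested genes of the mast cell and basophil list in all 9 libraries (columns; R+P stands for R788 + anti-PDL1). Colour scales stop at 2 and at 5 in either direction. The 3 R+P columns are blue for nearly all cholesterol genes and red for the mast cell proteases, and the Rad + R+P columns 2 and 3 are paler for most genes of both lists, whereas Rad + R+P column 1 is mixed for the cholesterol genes.

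Glycolytic and hypoxia-responsive genes were lower too. HIF proteins turn these genes on when oxygen is scarce. Of 38 listed genes 34 had a negative log2 fold change, and the median was -0.47. Of the 38, 18 lay wholly below vehicle and 0 above, against 16.5% and 13.6% of all genes tested. The called members were Ddit4 and Pdk1. Ddit4 (REDD1), an inhibitor of mTORC1, had 148, 204 and 211 CPM in the vehicle tumors and 74.7, 50.8 and 65.2 CPM in the R788 + anti-PDL1 tumors (log2 fold change -1.56 ± 0.22 (SE), edgeR adjusted p = 0.038). Pdk1, pyruvate dehydrogenase kinase 1, had 430.2, 351 and 351 CPM in vehicle and 173, 187 and 177 CPM with treatment (log2 fold change -1.08 ± 0.18 (SE), edgeR adjusted p = 0.038). Both were lower in each treated tumor. Pkm, pyruvate kinase, had 3142, 2786 and 2912 CPM in vehicle and 1922, 1591 and 1774 CPM with treatment (edgeR adjusted p = 0.28, and 0.029 with the 6 tumors), and Eno1, enolase, had 3222, 2548 and 2745 CPM in vehicle and 1899, 1468 and 1706 CPM with treatment (edgeR adjusted p = 0.3). Without treated tumor 2, which had the lowest sum (8488 CPM against 18029 to 20259 CPM in vehicle), the list median was -0.28. The core ACGTG was held by 19 of 35 promoters of the list (54.3%), against 25.04% of all promoters, 8 of 42 of called higher genes and 9 of 37 of called lower genes. The list was composed of glycolytic and hypoxia-responsive genes, so its share describes that choice and not the treatment. The Ddit4 promoter is shown as a called member with this core, in capitals, and the Pdk1 window held none of the motifs.
Ddit4 (chr10:59951721-59952020, reverse strand): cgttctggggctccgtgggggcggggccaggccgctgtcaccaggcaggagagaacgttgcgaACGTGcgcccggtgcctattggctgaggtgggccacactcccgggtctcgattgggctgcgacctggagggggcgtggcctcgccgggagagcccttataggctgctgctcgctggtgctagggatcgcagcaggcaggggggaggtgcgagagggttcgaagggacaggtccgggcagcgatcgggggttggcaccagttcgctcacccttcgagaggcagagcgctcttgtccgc

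Nuclear genes of the respiratory chain and genes of the cytosolic and mitochondrial ribosomes shared a small downward difference. Of 37 tested subunits of respiratory complex I 36 had a negative log2 fold change (median -0.43), as did 41 of 43 subunits of complexes II to V (median -0.39), 78 of 80 cytosolic ribosomal proteins (median -0.33) and 75 of 78 mitochondrial ribosomal proteins (median -0.28). No member of these 4 lists was called. At an unadjusted p under 0.05, 7 members passed, all lower, a smaller share than the 5.69% lower over all genes tested. Gene length moved with this result. By quartile of exonic length, from shortest to longest, the median log2 fold change of all expressed genes was -0.19, -0.08, -0.02 and 0.08. In the shortest quartile were 62 of 79 cytosolic ribosomal proteins, 29 of 37 complex I subunits and 31 of 42 subunits of complexes II to V. Fewer mitochondrial ribosomal proteins were short, with 44 of 78 in that quartile and 7 in the longest. The quartile medians of all genes were averaged over the quartiles that the members of a list fall in. They came to -0.15 for complex I, -0.16 for complexes II to V, -0.16 for cytosolic and -0.12 for mitochondrial ribosomal proteins. The shortest quartile spans 164 to 2717 bases, and the part of length in these lists was not tested. Per library, the shortest quartile had medians of 0.13, -0.09 and -0.03 in vehicle and -0.13, -0.23 and -0.15 with treatment. The longest had -0.12, 0.09 and 0.03 in vehicle and 0.09, 0.10 and 0.08 with treatment. Without vehicle tumor 1 the medians were -0.22 for complex I, -0.19 for complexes II to V and -0.20 for cytosolic ribosomal proteins, and without treated tumor 2 the median of mitochondrial ribosomal proteins was -0.18. Rpl17 had the largest difference of the ribosomal lists, at 1932, 2948 and 2785 CPM in vehicle and 585, 1067 and 772 CPM with treatment (edgeR adjusted p = 0.11), and it lies on chromosome 18. The 13 genes encoded in mitochondrial DNA had a median of 0.19, or 0.11 without treated tumor 2, with 11 of them positive.

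Immediate early genes and NF-kappa-B targets leaned downwards. The AP-1 and immediate early list, genes that respond within minutes to growth factors and stress, had 9 of 23 tested members lower and 2 higher at an unadjusted p under 0.05, with a median of -0.59. Its called member was Egr3, described above, which went up. Fos had 25.3, 43.0 and 39.2 CPM in vehicle and 14.8, 15.1 and 13.9 CPM with treatment (edgeR adjusted p = 0.093, and 0.027 with the 6 tumors). Nr4a1 had 19.6, 71.0 and 55.5 CPM in vehicle and 14.8, 19.6 and 15.9 CPM with treatment and overlapped between groups. Among 19 NF-kappa-B targets 8 were lower and 2 higher by the same measure, and none was called. Relb, an NF-kappa-B subunit, had 32.5, 34.6 and 28.2 CPM in vehicle and 17.6, 15.8 and 17.5 CPM with treatment (edgeR adjusted p = 0.088), and Vcam1, an adhesion molecule of endothelium, went the other way, at 21.0, 8.35 and 11.9 CPM in vehicle and 75.5, 25.2 and 61.2 CPM with treatment (edgeR adjusted p = 0.18). The ERK feedback list was split evenly, with 5 members higher and 5 lower at an unadjusted p under 0.05. Over all genes tested, 5.96% were higher and 5.69% lower by that measure.

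Mast cell genes showed the largest median of the lists described, 3.33 over the 9 tested of 11 listed genes. Mast cells are tissue cells packed with proteases, and they signal through the IgE receptor and Syk and need KIT ligand to survive. In a whole tumor, a change in the number of such cells and a change in RNA per cell cannot be told apart. Cpa3, carboxypeptidase A3, had 2.87, 0.404 and 0.384 CPM in the vehicle tumors and 11.3, 16.8 and 12.3 CPM in the R788 + anti-PDL1 tumors (log2 fold change 3.47 ± 0.81, edgeR adjusted p = 0.1, and 0.046 with the 6 tumors). Mcpt4, a chymase, had 3.48, 0.18 and 0.822 CPM in vehicle and 13.8, 25.6 and 16.5 CPM with treatment (edgeR adjusted p = 0.11), and Tpsb2, a tryptase, had 2.87, 0.135 and 1.21 CPM in vehicle and 11.8, 14.9 and 12.01 CPM with treatment (edgeR adjusted p = 0.11). The treated tumors were above the vehicle tumors for 8 of the 9 tested genes, the exception being Kit, against 13.6% of all genes tested. Fcer1a and Ms4a2 passed the count filter only through the treated tumors. They had 8 and 7 counts over the vehicle group and 114 and 48 over the treated group. The filter thus favoured a rise for these genes, and the share and the list median are no independent support. Vehicle tumor 1 was the highest of the vehicle tumors for the proteases. No mast cell gene was called in the fit of 9 libraries, 8 had an unadjusted p under 0.05, and the fit of the 6 tumors called 2. The basophil gene Prss34 had no count and Mcpt8 had none in the 6 tumors. The list summed to 15.5, 5.07 and 4.66 CPM in vehicle, 57.1, 86.2 and 60.6 CPM in R788 + anti-PDL1 and 15.9, 9.29 and 7.76 CPM in the irradiated tumors. Kitl rose in the same tumors, as given above, and whether the values are related was not tested.

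Syk and its partners were higher without passing the adjusted threshold. Syk had 19.3, 14.3 and 13.0 CPM in vehicle and 30.3, 24.8 and 31.4 CPM with treatment (edgeR adjusted p = 0.51, and 0.045 with the 6 tumors). Of the 29 genes of the Syk and ITAM list 27 had a positive log2 fold change, and the median was 0.79. Of the 29, 15 lay wholly above vehicle, against 13.6% of all genes tested. Of 22 macrophage markers 21 had a positive log2 fold change, with a median of 0.76, or 1.25 without vehicle tumor 1. Csf1r, the receptor macrophages depend on, had 30.3, 17.8 and 22.9 CPM in vehicle and 41.4, 78.3 and 49.7 CPM with treatment, and the F4/80 gene Adgre1 had 25.6, 7.95 and 11.3 CPM in vehicle and 29.8, 22.9 and 31.2 CPM with treatment. Vehicle tumor 1 stood above the other vehicle tumors for both, and overlapped the treated group for Adgre1. Cd274, the antibody's target, had 2.65, 6.60 and 4.44 CPM in vehicle and 5.34, 2.37 and 4.55 CPM with treatment, and the groups overlapped. Of the 12 genes of the PD-1 and PD-L1 list 7 were tested and none was called.

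MHC class II genes were highest in treated tumor 2. Cd74, the invariant chain of MHC class II, had 51.5, 39.9 and 44.2 CPM in vehicle and 55.8, 304 and 121 CPM with treatment (edgeR adjusted p = 0.39), and like Csf1r it lies on chromosome 18. The median of the MHC class II list was 1.72 and was 0.86 without that tumor. Nlrc5, the transactivator of MHC class I genes, had 10.8, 5.25 and 5.81 CPM in vehicle and 17.6, 57.1 and 31.7 CPM with treatment (edgeR adjusted p = 0.066, and 0.041 with the 6 tumors), and it was also highest in treated tumor 2. Of 9 tested genes of cytotoxic lymphocytes and NK cells 8 had a positive log2 fold change, 2 at an unadjusted p under 0.05, with a median of 1.51. The cytotoxic list summed to 12.9, 7.10 and 8.71 CPM in vehicle and 12.3, 31.3 and 18.3 CPM with treatment, so that treated tumor 1 lay within the vehicle range. Gzma, a granzyme, had 0.773, 0.674 and 0.822 CPM in vehicle and 1.19, 8.06 and 2.54 CPM with treatment. Prf1, perforin, had 4.31, 2.83 and 2.30 CPM in vehicle and 3.26, 2.75 and 3.24 CPM with treatment. Gzmb, granzyme B, had 3.64, 1.53 and 3.23 CPM in vehicle and 3.44, 7.34 and 5.53 CPM with treatment. The groups overlapped for Prf1 and Gzmb. The scavenger receptor gene Cd163, whose values were 0.552, 1.62 and 0.658 CPM in vehicle and 1.23, 20.9 and 6.15 CPM with treatment, overlapped between groups. The T cell list had 6 of 15 genes tested, of which 5 had a positive log2 fold change, 2 at an unadjusted p under 0.05, with a median of 0.74. Cd3e, which every T cell needs for its receptor, was at 0.166, 0.135 and 0.274 CPM in vehicle and 0.176, 0.191 and 0.041 CPM with treatment, where 3 counts correspond to 0.115 to 0.166 CPM. Cd4, which macrophages of some tissues also express, was highest in treated tumors 1 and 3, at 3.09, 0.898 and 0.987 CPM in vehicle and 22.9, 2.03 and 12.2 CPM with treatment.

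Of 8 tested neutrophil genes 4 were lower and 1 was higher at an unadjusted p under 0.05, at low levels. S100a9, a subunit of the neutrophil protein calprotectin, had 0.883, 2.74 and 4.00 CPM in vehicle and 0.0882, 0.382 and 0.205 CPM with treatment (edgeR adjusted p = 0.083). Cxcl2, a neutrophil chemoattractant, had 0.663, 6.87 and 6.30 CPM in vehicle and 0.573, 0.344 and 0.41 CPM with treatment (edgeR adjusted p = 0.11). For Cxcl2, vehicle tumor 1 was nearly as low as the treated tumors. The neutrophil list had 8 of 15 genes tested and a median of -2.03, or -1.32 in the fit of the 6 tumors. Mmp9, a gelatinase also made by macrophages, ran the other way, mainly in treated tumors 1 and 3, at 10.8, 9.74 and 10.6 CPM in vehicle and 76.2, 12.4 and 62.7 CPM with treatment. Of 26 type I interferon genes 20 were negative, with a median of -0.41, and Isg15 had 3.92, 8.80 and 7.84 CPM in vehicle and 2.205, 1.91 and 3.36 CPM with treatment (edgeR adjusted p = 0.32). In the IFN gamma list, Igtp, an immunity-related GTPase, was called, at 17.9, 27.4 and 28.2 CPM in vehicle and 8.86, 7.38 and 7.01 CPM with treatment (log2 fold change -1.66 ± 0.26 (SE), edgeR adjusted p = 0.038). It shares exons on the same strand with Irgm2, so its count is uncertain. Of 10 tested hemoglobin and red cell genes 7 lay wholly below vehicle, against 16.5% of all genes tested. Among the 7, Hbb-bs had 241, 78.2 and 98.8 CPM in vehicle and 22, 37.1 and 28.3 CPM with treatment (edgeR adjusted p = 0.15, and 0.038 with the 6 tumors).

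Endothelial genes were highest in treated tumor 2. The list summed to 131, 142 and 143 CPM in vehicle and 141, 336 and 193 CPM with treatment, so that treated tumor 1 lay within the vehicle range. All 21 genes had a positive log2 fold change, 6 at an unadjusted p under 0.05, and the median was 0.88, or 0.39 without that tumor. Pecam1 (CD31) had 14.5, 15.4 and 15.8 CPM in vehicle and 18.7, 45.0 and 26.1 CPM with treatment (edgeR adjusted p = 0.22). Matrix genes varied by family. Of 9 tested laminins 6 lay wholly above vehicle, against 13.6% of all genes tested. The laminin median was 0.79, or 0.47 without treated tumor 2. Lama2 had 19.9, 20.8 and 19.2 CPM in vehicle and 60.3, 70.5 and 62.1 CPM with treatment (edgeR adjusted p = 0.11, and 0.005 with the 6 tumors). Vcan, the proteoglycan versican, had 111, 119 and 109 CPM in vehicle and 294, 174 and 268 CPM with treatment (edgeR adjusted p = 0.076). The proteoglycan and glycoprotein list had 10 of 32 members higher and 1 lower at an unadjusted p under 0.05. Its median was 0.69, or 0.37 without treated tumor 2. The 34 tested collagens had a median of 0.27, or 0.12 without treated tumor 2, and Col1a2, a chain of type I collagen, had 43.7, 19.2 and 25.5 CPM in vehicle and 37.7, 195 and 78.0 CPM with treatment, with treated tumor 2 far above the others.

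Genes of neurons and of axon growth were higher from low levels. In the synaptic vesicle list 7 of 20 tested genes were higher and none lower at an unadjusted p under 0.05 (median 0.63, or 0.39 without treated tumor 2). Sv2a, a vesicle glycoprotein, had 7.45, 4.54 and 6.69 CPM in vehicle and 14.99, 15.4 and 14.2 CPM with treatment (edgeR adjusted p = 0.09), and Rab3b, a GTPase of vesicle release, had 0.166, 0.269 and 0.0548 CPM in vehicle and 1.98, 1.99 and 1.89 CPM with treatment (edgeR adjusted p = 0.062). Both were level among the 3 treated tumors. Of 43 tested axon guidance genes 9 were higher and 0 lower by that measure, and 6 were called higher in the fit of the 6 tumors. The median of the axon guidance list was 0.40, or 0.22 without treated tumor 2. Sema5a, a semaphorin, had 8.61, 6.11 and 6.52 CPM in vehicle and 38.2, 32.3 and 31.5 CPM with treatment (edgeR adjusted p = 0.058, and 0.0077 with the 6 tumors), and Nrp2, a semaphorin and VEGF co-receptor, had 16.1, 8.62 and 10.5 CPM in vehicle and 85.6, 23.5 and 70.1 CPM with treatment. Dpysl3, which shapes the growth cone, was called, at 14.9, 8.67 and 9.48 CPM in vehicle and 50.4, 64.7 and 50.1 CPM with treatment (log2 fold change 2.32 ± 0.28 (SE), edgeR adjusted p = 0.034). The Wnt list had 10 of 38 members higher and 2 lower at an unadjusted p under 0.05. Wnt5a, a ligand, had 3.86, 1.44 and 3.51 CPM in vehicle and 28.6, 9.13 and 28.5 CPM with treatment (edgeR adjusted p = 0.074), whereas Lef1 was the called member and fell.

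**Figure D5:**
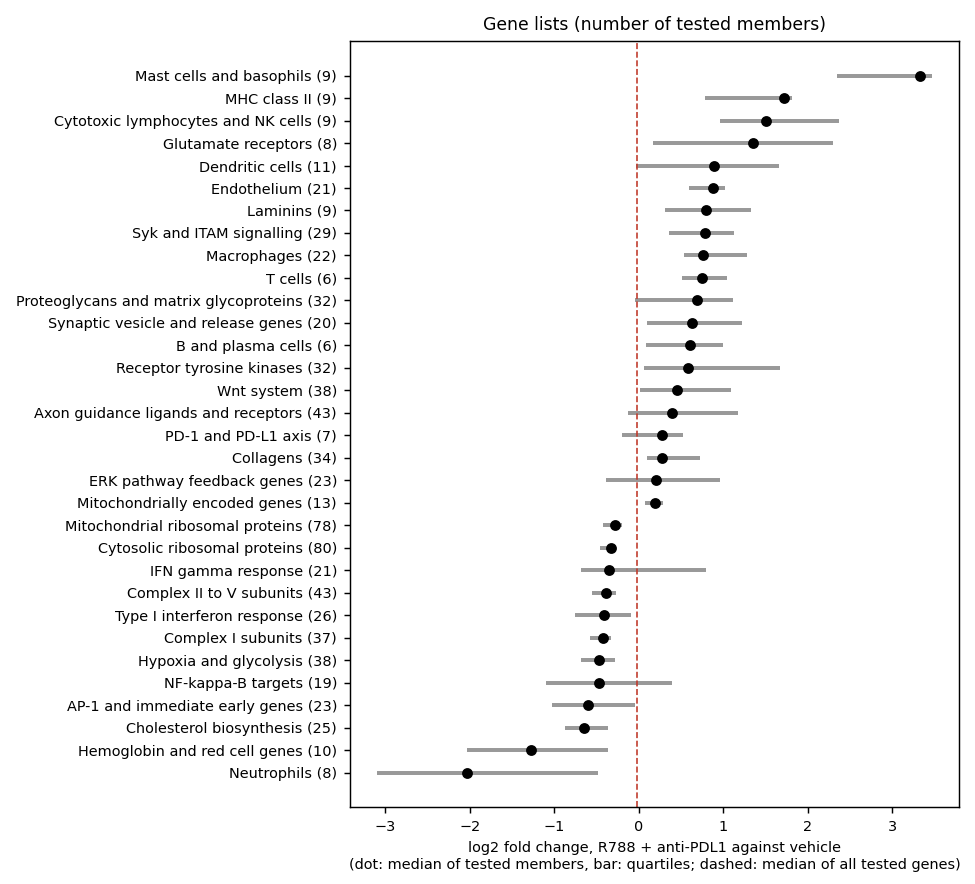
For each of 32 gene lists, the dot gives the median log2 fold change over its tested genes and the bar the quartiles, with the number of tested genes in brackets. The dashed line is the median of all genes tested, -0.02. Mast cell genes lie farthest to the right at 3.33 and neutrophil genes farthest to the left at -2.03.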

How the data were processed

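RNA-seq was made from whole tumors by poly(A) selection. Reads had been mapped to mm10 with STAR (2.6.1d) and quantified with Salmon (1.4.0) by the authors, and the deposited values are estimated counts per gene symbol, as whole numbers with no normalization. The labels name a paired-end NovaSeq run and the methods a single-read HiSeq run. The authors compared groups with DESeq2.

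All 9 libraries entered 1 model with a coefficient per group. Low genes were removed with filterByExpr (minimum count 10), library sizes were scaled by TMM, and the two-sided quasi-likelihood F test of edgeR 4.0.16 (robust, R 4.3.3) was applied. A gene was called where its Benjamini-Hochberg adjusted p was under 0.05. Total counts were 18276683 to 23397886 per library, and floors of 3 counts cover counting error only. Each SE is the absolute log2 fold change divided by the square root of F, so it includes the spread between tumors in the fit of 9 libraries. The scripts were tested on simulated data. Annotation was GENCODE M21 (GRCm38), to which 98.8% of symbols matched, and promoters were from RefSeq (GRCm38.p6). Log2 differences by region used CPM + 0.5 and genes of at least 1 CPM.

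The rule for named genes took the 15 highest and 15 lowest changes among calls whose mean count reached 50 and whose groups did not overlap, without predicted, Rik or antigen receptor genes, the 6 most abundant called genes, called members and the 4 smallest p of each list, and Syk, Cd274 and Mycn. Other genes named were chosen after their values were seen. The gene lists, and the choice of this comparison, were written with earlier results of these data known. Lists were given no test. Replicate numbers did not pair the tumors (correlations of deviations -0.05 to -0.04). Alternatives were DESeq2 1.42.0, limma-voom (limma 3.58.1), RLE and upper-quartile scaling, 2 other filters, 6 or 8 libraries, each tumor left out and a replicate block. Some genes are not reported here.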

Additional observations from a re-analysis of the deposited data

How the results depend on the processing

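The number of calls depended on the libraries that set the spread. Against 108 calls (62 higher, 46 lower), 594 (327, 267) were made from the 6 tumors alone, 856 (394, 462) with the first irradiated library dropped, 770 (443, 327) by DESeq2 and 199 (118, 81) with no low-count filter. With 1 tumor left out, calls ran from 0 to 75 (0 to 48 higher, 0 to 27 lower) and unadjusted p-values under 0.05 from 1171 to 1816. Genes whose groups did not overlap numbered 4799 with all 6 tumors and 5420 to 7314 with 1 left out, most without treated tumor 2. Removing a tumor can only keep or raise that number, so the rise is automatic. Calls were at 0 without treated tumor 1 or 3 or vehicle tumor 2 or 3. The replicate block gave 0 calls in the fit of 9 libraries (0 higher, 0 lower, 1775 genes at an unadjusted p under 0.05). With the 6 tumors, an alternative chosen after seeing the data, the replicate block gave 160 calls, 87 of them lower, and 3101 genes at an unadjusted p under 0.05, against 3408 without it and 3857 for 8 libraries. Replicate numbers do not pair the tumors, and the cause of the lost calls was not tested. RLE scaling, upper-quartile scaling, limma-voom and a minimum of 10 counts in every library gave 82 to 111 calls. All 108 called genes kept their direction in every fit that tested them. They had been chosen from these same tumors, so this is not independent support. The difference of Cd274 turned from -0.16 to 0.11 without treated tumor 2 and to 0.20 without vehicle tumor 2, over a range from -0.42 to 0.20.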

Other observations

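Krt14, a keratin of the basal epidermis, had 0.221, 1.84 and 2.36 CPM in the vehicle tumors and no count in the R788 + anti-PDL1 tumors. Ptprc (CD45), carried by blood cells other than mature red cells, had 11.1, 7.95 and 9.92 CPM in vehicle and 20.5, 40.5 and 22.8 CPM with treatment, and the groups did not overlap. Of 8 tested glutamate receptor genes 3 were higher and 0 lower at an unadjusted p under 0.05, with a median log2 fold change of 1.35, or 0.53 without treated tumor 2. The 11 tested dendritic cell genes had a median of 0.90, or 0.60 without that tumor. Jun, an AP-1 subunit, had 256, 196 and 229.8 CPM in vehicle and 172, 167 and 173 CPM with treatment, and Slc2a1, the glucose transporter GLUT1, had 122.8, 145 and 155 CPM in vehicle and 124, 57.8 and 101 CPM with treatment, overlapping between groups. These genes were named after their values were seen.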
